A study of Mus musculus with 27 samples.

Results

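The let-7 guide strands and miR-98 were followed as 10 entries of a mouse cortex small RNA count table: mmu-let-7a-5p, mmu-let-7b-5p, mmu-let-7c-5p, mmu-let-7d-5p, mmu-let-7e-5p, mmu-let-7f-5p, mmu-let-7g-5p, mmu-let-7i-5p, mmu-let-7j and mmu-miR-98-5p, written without the species prefix from here on. They were chosen by name, without use of any measured value, out of 1842 mature miRNA entries, and all 10 were measured and tested. The 27 libraries were made from total RNA of cortex from wildtype C57BL6 mice of 7 to 8 weeks. One group had sham surgery, in which the arteries were exposed under anesthesia but no filament was inserted. The other groups had middle cerebral artery occlusion (MCAO) for 35 min, a filament model of ischemic stroke, followed by 3, 6, 12 or 24 h of reperfusion. At each time the hemisphere on the occluded side (ipsilateral) and the opposite hemisphere (contralateral) were sampled separately. This gave 9 groups of 3 libraries, and each replicate number stands for animals operated on 1 day. No transgene, deletion or drug was shared by the groups. The sources used here do not say whether a library holds 1 animal, or whether the 2 hemispheres with the same replicate number come from 1 animal.

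miRNAs are short RNAs that guide Argonaute proteins to partly matching sites in messenger RNAs, which are then translated less or degraded. Pairing depends most on the seed, bases 2 to 8 of the guide strand. The let-7 family is known for holding cells in a differentiated state, with targets such as Hmga2, Ras and Myc transcripts and Lin28, whose protein in turn blocks the maturation of let-7 precursors. It accumulates as neural progenitors differentiate and is abundant in adult brain. miR-98 is counted with the family because it carries the same seed.

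The mature sequences are shown because they set both which targets the members share and how well reads of the members can be told apart. They are the RefSeq sequences of the GRCm38.p6 annotation, which held all 10 members, written 5′ to 3′ with the seed in capitals.
let-7a-5p: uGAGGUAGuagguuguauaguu
let-7b-5p: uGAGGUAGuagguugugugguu
let-7c-5p: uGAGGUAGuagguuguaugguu
let-7d-5p: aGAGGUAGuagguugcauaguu
let-7e-5p: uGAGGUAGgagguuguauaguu
let-7f-5p: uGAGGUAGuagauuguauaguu
let-7g-5p: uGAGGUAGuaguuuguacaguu
let-7i-5p: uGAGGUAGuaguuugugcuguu
let-7j: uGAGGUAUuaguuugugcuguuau
miR-98-5p: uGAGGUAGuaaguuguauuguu

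The seed GAGGUAG was common to 9 members, and let-7j had GAGGUAU instead. Counted from 1 at the 5′ end, let-7a-5p and let-7f-5p differed by G12A, let-7a-5p and let-7c-5p by A19G, and let-7a-5p and let-7e-5p by U9G. let-7d-5p differed from let-7a-5p at the first base and near the 3′ end (U1A and U16C), and miR-98-5p differed by G11A and A19U. let-7j differed from let-7i-5p by G8U, inside the seed, and by 2 further bases at its 3′ end. Over all 45 pairs of members, 5 pairs differed by 1 base and 15 pairs by no more than 2, with a largest difference of 7. The rule for reads matching several members was not given in the sources used here, and single members are uncertain to the extent that a sequencing error or an untemplated base moves a read between them. The summed count of the 10 entries does not depend on how a read was split among them, but would change if such reads were dropped or counted more than once. Besides the members, miR-1961 has the GAGGUAG seed and was counted 0 to 12 times per library, too few to be tested, and miR-202-3p in the table has the seed of let-7j.

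The hairpins lie apart in the genome, so the members do not come from 1 transcript. In GRCm38.p6, Mirlet7a-1 (chr13:48538179-48538272), Mirlet7f-1 (chr13:48537829-48537917) and Mirlet7d (chr13:48536012-48536114) lie together on the minus strand in exons of the noncoding gene 6720427I07Rik. Mirlet7f-2 (chrX:151912346-151912428) and Mir98 (chrX:151913214-151913321) lie together on the plus strand in an intron of Huwe1, which encodes a ubiquitin ligase. Mirlet7b and Mirlet7c-2 lie in exons of Lncppara on chromosome 15, and Mirlet7c-1 in an intron of Mir99ahg on chromosome 16. Mirlet7e lies in an intron of Spaca6 on chromosome 17, Mirlet7g in an intron of Wdr82 on chromosome 9, and Mirlet7i in an exon of D630033A02Rik on chromosome 10. Mirlet7a-2 lies in introns of 3110039I08Rik and Gm49317 on chromosome 9. let-7f-5p can therefore come from the chromosome 13 or the X hairpin, let-7a-5p from chromosome 13 or 9 and let-7c-5p from chromosome 15 or 16, and their mature counts do not separate these sources.

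Library totals ranged from 856591 to 1903416 counts. Levels are given as CPM, counts scaled to a common library total, after scaling by TMM factors, which set the level of the average entry equal between libraries, unless CPM of the library total is named. The 7 neuron-enriched miRNAs used to check the tissue label, among them miR-124-3p and miR-9-5p, summed to between 65991 CPM (ipsilateral, 3 h, replicate 1) and 196690 CPM (ipsilateral, 12 h, replicate 2), with none at 0 in any library. In contrast, the epithelial miR-200 and miR-183 family markers summed to 29811 CPM in sham replicate 2 and 25454 CPM in ipsilateral 6 h replicate 3, against at most 960 CPM in the other libraries. Every comparison was therefore also fitted without these 2 libraries, with values given beside the results. In that fit the comparisons in which no member was called with all libraries again had 0 members called. No pair of replicates agreed within sampling noise, with a chi-square per degree of freedom of at least 11.2.

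The family made up a large part of every library. The summed 10 entries took 9.40% of the counts in the lowest library (ipsilateral, 24 h, replicate 1), 12.1% in the median library and 17.98% in the highest (ipsilateral, 6 h, replicate 1). The 95% Wilson interval of the lowest share, which covers counting error only because PCR copies are not separate molecules, was 9.34% to 9.45%. Counting error was thus far smaller than the spread between libraries.

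Among the members, let-7f-5p was the most abundant. It had 61750 ± 13433 CPM of the library total (SD over 27 libraries) and was the fifth entry of the table by level. let-7c-5p followed with 17917 ± 2921 CPM, and let-7a-5p with 14164 ± 2276 CPM. Their SDs span all groups, and within every single library let-7c-5p was above let-7a-5p. let-7g-5p (8162 ± 894 CPM), let-7i-5p (7706 ± 1352 CPM) and let-7e-5p (6733 ± 1632 CPM) were neighbours whose order changed between libraries. The remaining members were let-7d-5p with 4911 ± 1097 CPM, let-7b-5p with 3384 ± 448 CPM, let-7j with 2391 ± 579 CPM and miR-98-5p with 917 ± 123 CPM of the library total. The mature RNAs are of nearly the same length, 22 bases for 9 of them and 24 for let-7j, so the order is one of levels per molecule, apart from any difference in how well each is ligated and read. The lowest single count behind any value was 708, for miR-98-5p.

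**Figure D1:**
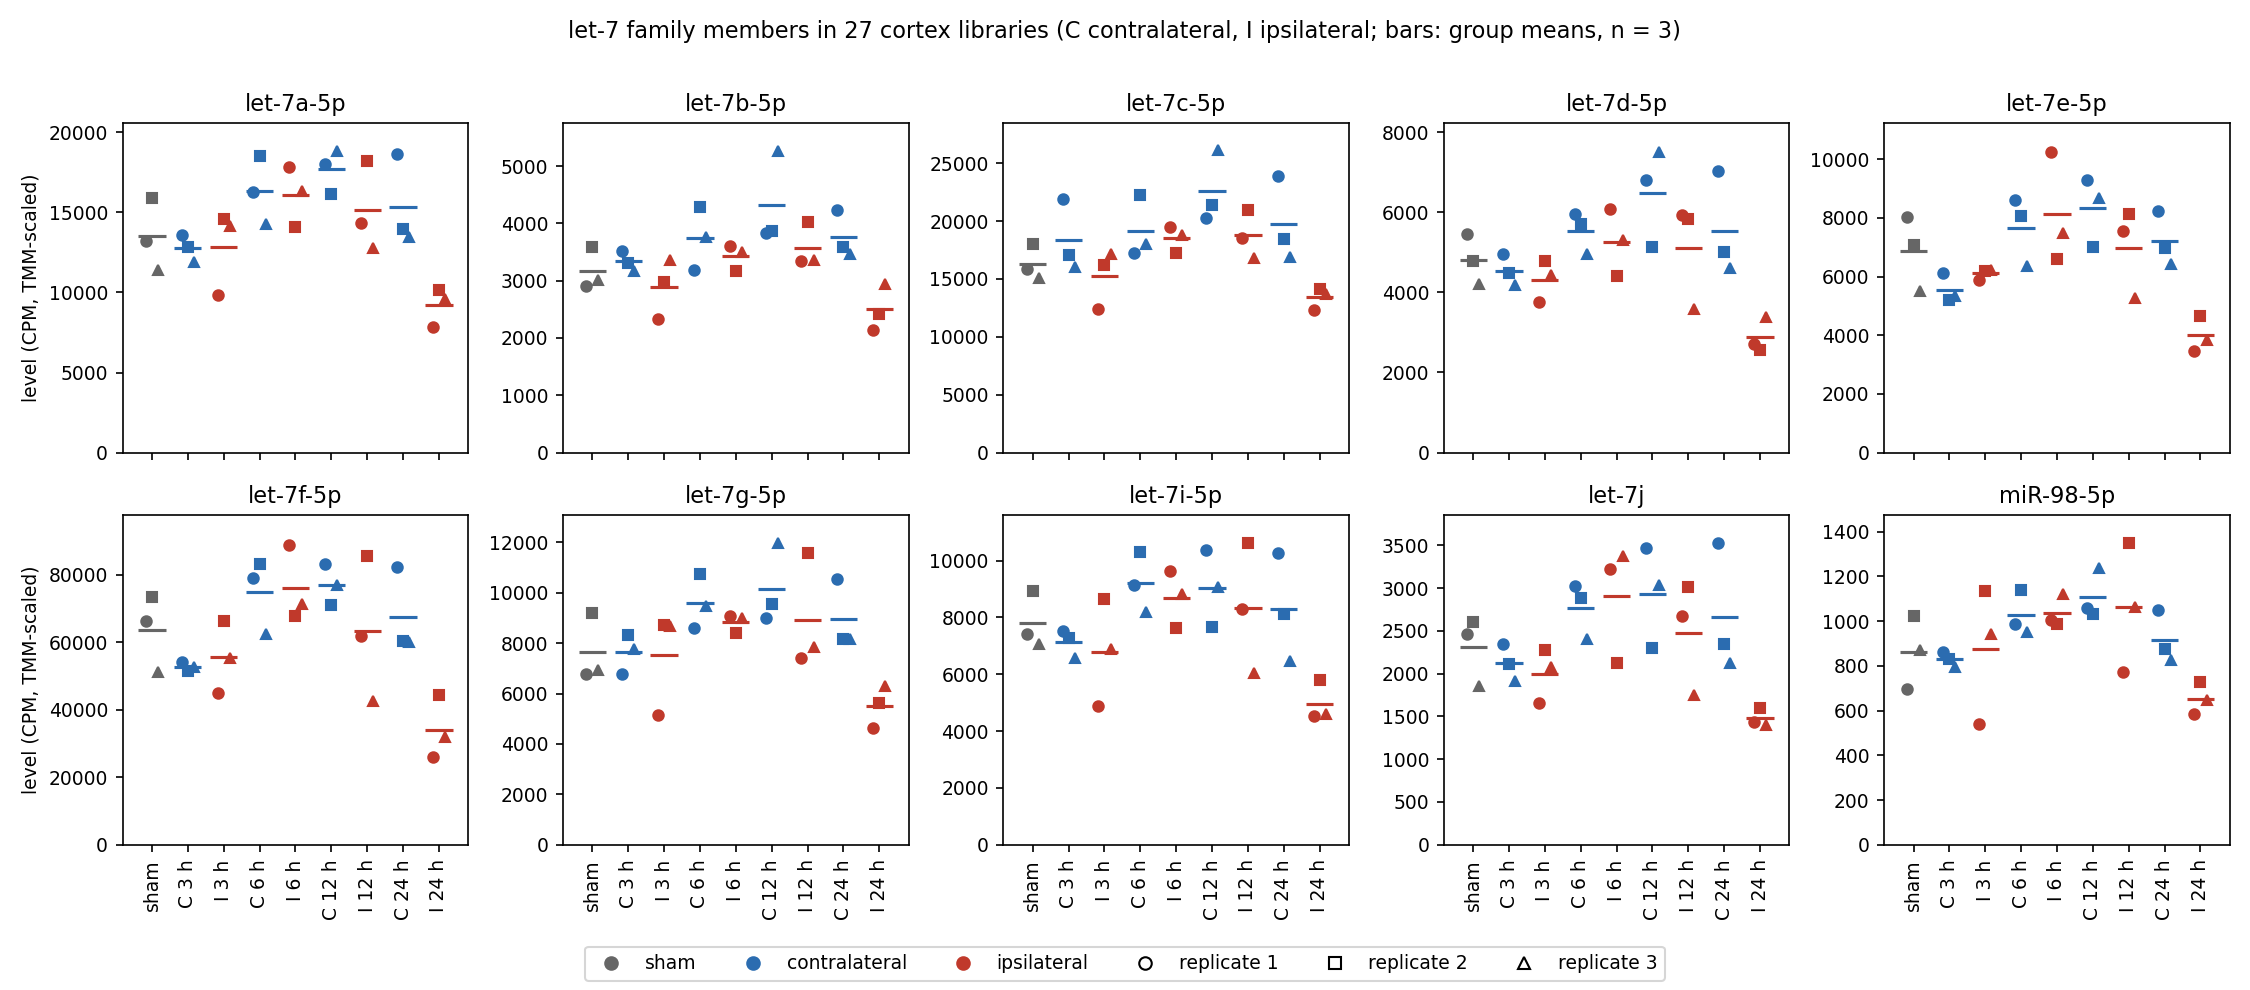
TMM-scaled level (CPM, each panel with its own axis from 0) of each of the 10 members in the 27 libraries, by group, with colour for sham, contralateral (C) and ipsilateral (I) cortex, marker shape for the replicate and a bar for the group mean (n = 3). In every panel the 3 ipsilateral 24 h libraries lie below the 3 contralateral 24 h libraries.

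The comparison of hemispheres at 24 h asked how the family differed between occluded and opposite cortex 1 day after the occlusion. At 24 h, 7 of the 10 members were lower in ipsilateral than in contralateral cortex in edgeR's quasi-likelihood test at an adjusted p under 0.05, and none was higher. They were let-7a-5p, let-7d-5p, let-7e-5p, let-7f-5p, let-7g-5p, let-7i-5p and let-7j. Of all 1470 entries tested, 1.43% were called lower, and of the 282 entries with a mean of at least 100 CPM, 7.09% were, so the 7 members were among 21 entries called lower. In the other direction 11.8% of the tested entries were called higher. The median log2 fold change was -0.74 over the members, 0.08 over all tested entries and -0.47 over the entries of at least 100 CPM. A lower level in these bulk samples can mean fewer cells of a type that holds the miRNA or less of it per cell, and the 2 cannot be told apart here.

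The most abundant member had the most negative value. let-7f-5p had 25968, 44265 and 31981 CPM in ipsilateral replicates 1, 2 and 3 at 24 h, and 82236, 60413 and 60115 CPM in contralateral replicates 1, 2 and 3. The highest ipsilateral library was thus below the lowest contralateral one, and the widest gap was in replicate 1. The log2 fold change of let-7f-5p was -0.99 ± 0.24 (SE, n = 3 against 3, 95% interval -1.49 to -0.49), a level 0.504 times the contralateral one, with an edgeR adjusted p of 0.0049.

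let-7d-5p, whose hairpin lies in the chromosome 13 cluster with one of those of let-7f-5p, had 2723, 2572 and 3391 CPM on the ipsilateral side and 7035, 5002 and 4599 CPM on the contralateral side at 24 h. Its log2 fold change was -0.94 ± 0.23 (edgeR adjusted p = 0.0047). let-7a-5p, whose mature count joins a hairpin of that cluster with one on chromosome 9, had 7811, 10143 and 9605 CPM against 18637, 13957 and 13456 CPM, and changed by -0.74 ± 0.21 on the log2 scale (edgeR adjusted p = 0.015). For all 3 members the groups did not overlap and contralateral replicate 1 was the highest library.

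let-7e-5p, whose precursor shares a transcript with miR-99b and miR-125a, had 3453, 4670 and 3851 CPM on the ipsilateral side and 8235, 6968 and 6440 CPM on the contralateral side. Its log2 fold change was -0.85 ± 0.22 (edgeR adjusted p = 0.0075). let-7j, the member with the altered seed, had 1439, 1603 and 1396 CPM against 3526, 2345 and 2120 CPM and changed by -0.85 ± 0.25 (edgeR adjusted p = 0.022). let-7j and let-7i-5p kept a ratio of 0.308 ± 0.0284 over the 27 libraries (SD, lowest 0.262, highest 0.383), so the levels of these near-identical sequences moved together. This was not particular to them. Pearson's r of log2 CPM was 0.94 for this pair and also 0.94 for let-7a-5p and let-7i-5p, which differ by 4 bases.

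let-7g-5p had 4617, 5645 and 6299 CPM on the ipsilateral side and 10550, 8165 and 8160 CPM on the contralateral side (log2 fold change -0.70 ± 0.23, edgeR adjusted p = 0.041). let-7i-5p had 4527, 5788 and 4584 CPM against 10277, 8122 and 6465 CPM (log2 fold change -0.74 ± 0.24, edgeR adjusted p = 0.036). Both lay on the same side in every library, but nearer to the threshold than let-7d-5p, let-7e-5p or let-7f-5p.

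The other 3 members did not pass the test at 24 h. let-7b-5p, known to activate a Toll-like receptor for single-stranded RNA when released from cells, had 2143, 2413 and 2947 CPM on the ipsilateral side and 4227, 3587 and 3472 CPM on the contralateral side (log2 fold change -0.59 ± 0.20, edgeR adjusted p = 0.054). let-7c-5p had 12288, 14163 and 13739 CPM against 23848, 18450 and 16915 CPM (log2 fold change -0.56 ± 0.20, edgeR adjusted p = 0.059). miR-98-5p had 584, 728 and 647 CPM against 1052, 875 and 826 CPM (log2 fold change -0.49 ± 0.25, edgeR adjusted p = 0.227). Their libraries did not overlap between hemispheres either, so that all 10 members had non-overlapping groups with the ipsilateral side lower. That held for 12% of the tested entries and for 40.4% of those of at least 100 CPM, which makes non-overlap a common pattern among abundant miRNAs at this time.

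**Figure D2:**
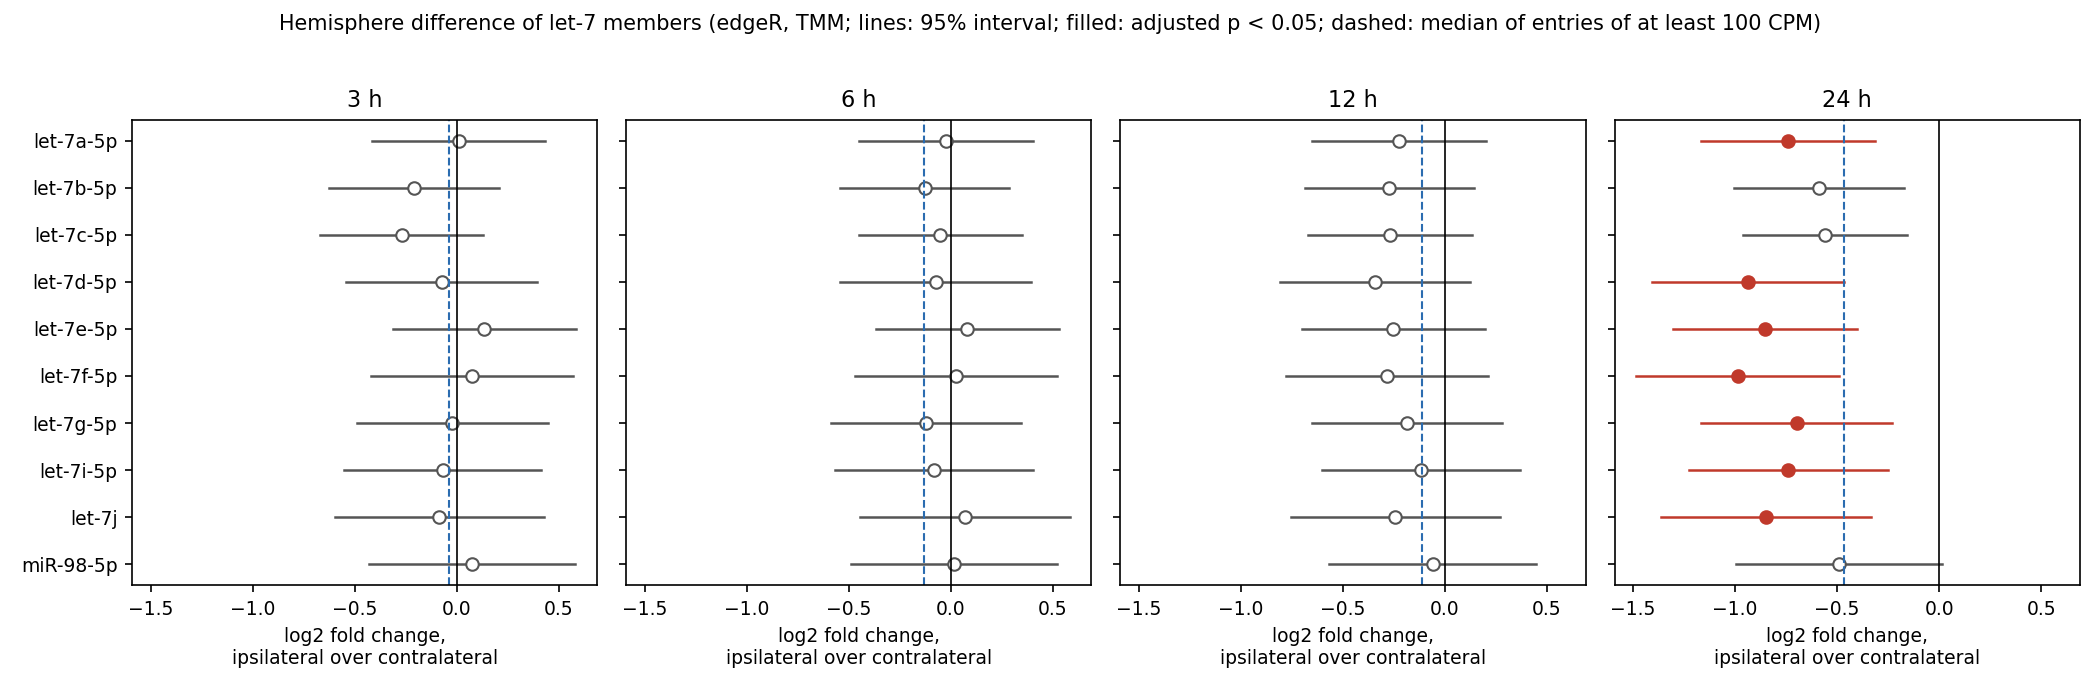
Log2 fold change of each member between ipsilateral and contralateral cortex at 3, 6, 12 and 24 h (x axis, edgeR with TMM factors), with lines for the 95% interval, filled red points for an adjusted p under 0.05 and a dashed line for the median of the entries of at least 100 CPM. Points lie around 0 at 3 and 6 h, and at 24 h all 10 lie to the left of 0, with 7 filled.

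Fitting the day of surgery as a block raised the count at 24 h to 9 of 10, all lower: let-7b-5p (adjusted p = 0.013) and let-7c-5p (adjusted p = 0.020) were gained in that edgeR fit, and miR-98-5p had an adjusted p of 0.079. The calls over all entries rose as well in that fit, to 6.53% of the tested entries called lower and 31.2% of those of at least 100 CPM. Within each of the 3 days of surgery, all 10 members were below 0 at 24 h. The same held on all 3 days for 21.2% of the tested entries and for 58.5% of those of at least 100 CPM, and the members, which vary together, are not separate observations of a day. For let-7f-5p they were -1.66, -0.45 and -0.91 on the log2 scale for replicates 1, 2 and 3, and for let-7e-5p -1.25, -0.58 and -0.74. The day of replicate 1 gave the largest difference for each of the 10 members.

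How much of the difference was called depended on the scaling of the libraries. The TMM factors of the 3 ipsilateral 24 h libraries were 1.43, 1.18 and 1.25, against 0.93, 0.83 and 0.99 in the contralateral ones. With library totals alone the median of all tested entries moved by 0.49 to 0.57, 226 entries were called higher and 0 lower, and 0 members were called, although all 10 kept values below 0, from -0.52 for let-7f-5p (adjusted p = 0.103) to -0.01 for miR-98-5p. As CPM of the library total, let-7f-5p had 37220, 52138 and 39855 in ipsilateral and 76283, 50111 and 59492 in contralateral cortex, so these shares overlapped. let-7e-5p had 4949, 5500 and 4800 against 7639, 5779 and 6374 CPM of the library total, which did not overlap.

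A change of scaling moves all entries by about the same amount, so the distance of the members to a median and their rank are nearly fixed whatever the scaling and say nothing about the calls. The median member was 0.82 below the median of all tested entries on the log2 scale with TMM factors and 0.83 below it with library totals, with 0.80 below it for DESeq2's size factors. Against the median of the entries of at least 100 CPM it was 0.27 below with TMM factors and 0.28 below with library totals. Among those 282 entries, ordered from the most negative fold change, let-7f-5p was at place 5 under both scalings, let-7d-5p at 8 and 10, let-7e-5p at 18 and 18, and miR-98-5p at 134 and 128. All 10 members were below the median of these entries with TMM factors.

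**Figure D3:**
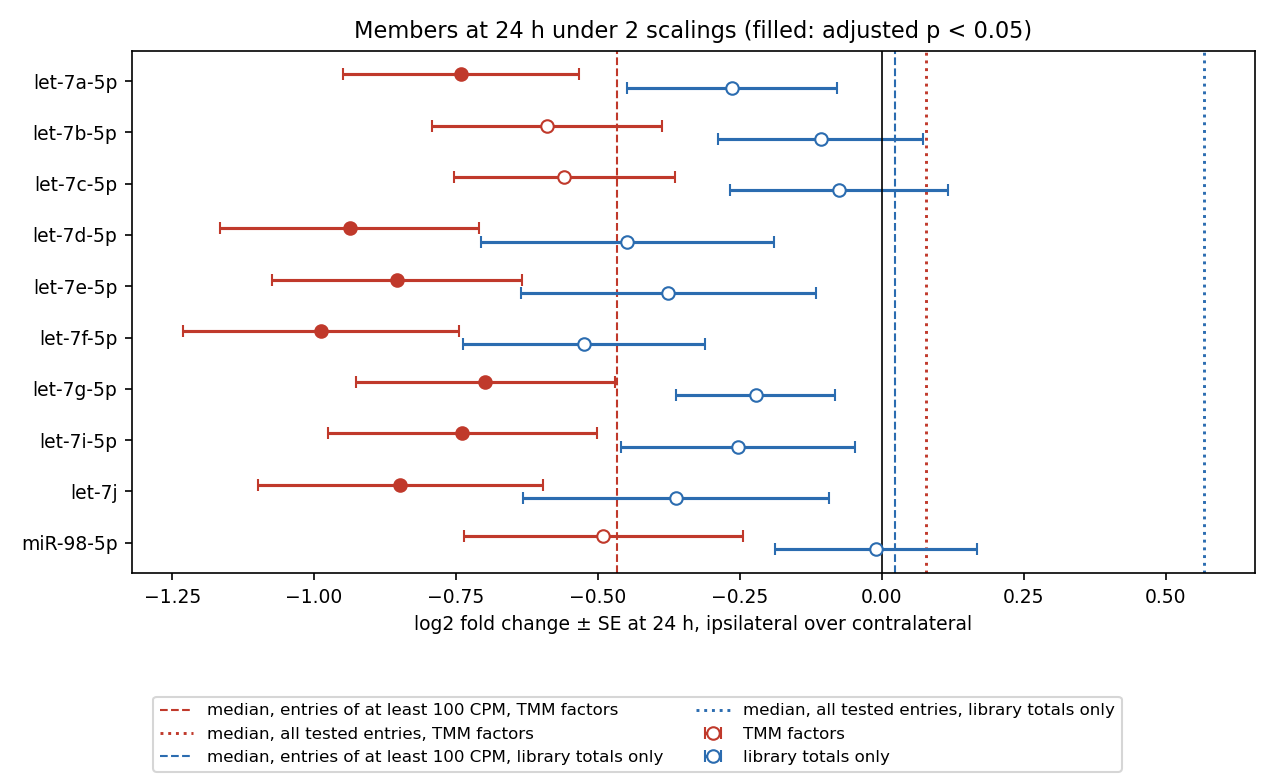
Log2 fold change ± SE of each member between ipsilateral and contralateral cortex at 24 h with TMM factors (red) and with library totals only (blue), filled where the adjusted p was under 0.05. Dotted lines mark the median of all tested entries and dashed lines that of the entries of at least 100 CPM in the same colours. Both scalings place the members below the medians of their own colour, while 7 are filled with TMM factors and 0 with library totals.

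Summed levels of several cell type marker lists differed between the hemispheres at 24 h as well, although edgeR called none of their entries, and their part in the result was not tested. All 7 neuron-enriched entries had values below 0 (median log2 fold change -0.55), and they summed to between 68722 and 101874 CPM in ipsilateral against 107660 to 162916 CPM in contralateral libraries. The median over all entries of at least 100 CPM was -0.47 with TMM factors, which the marker sums use, and 0.02 with library totals. edgeR called 0 of the 7, with 1 at an unadjusted p under 0.05 and 0 called by DESeq2. The vascular markers summed to 9439 to 16779 against 15323 to 39470 CPM, the leukocyte markers to 816 to 1088 against 1081 to 1768 CPM, the oligodendrocyte markers to 977 to 1788 against 1787 to 2512 CPM and the erythrocyte markers to 139 to 195 against 186 to 229 CPM. For each of these lists, from vascular to erythrocyte, the ranges of the hemispheres overlapped. None of their 12 tested entries was called by edgeR or DESeq2, and 2 had an unadjusted p under 0.05. The choroid plexus pair summed to 2233 to 2809 against 2826 to 5321 CPM, but 1 of its 2 entries was above 0, for a median log2 fold change of 0.16, with 0 called by either tool and 1 at an unadjusted p under 0.05. The epithelial markers went the other way, with sums of 568 to 960 CPM on the ipsilateral and 443 to 497 CPM on the contralateral side, 3 of 6 tested entries below 0 and none called by either tool or at an unadjusted p under 0.05. The muscle markers summed to 82.6 to 121 against 181 to 199 CPM, and the 1 tested had a log2 fold change of -0.83, called by neither tool, with an unadjusted p under 0.05. Markers were at 0 in single libraries only in the epithelial and muscle lists, which hold the rarest entries.

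Against sham cortex, ipsilateral cortex at 24 h had 3 members called lower by edgeR: let-7d-5p, let-7e-5p and let-7f-5p. Of all tested entries 1.36% were called lower, and 3.55% of those of at least 100 CPM, while 11.3% of all tested entries were called higher. let-7f-5p had 66353, 73517 and 51229 CPM in sham libraries, all above the 3 ipsilateral values, and the log2 fold change was -0.90 ± 0.24 (edgeR adjusted p = 0.011). let-7e-5p had 8040, 7091 and 5513 CPM in sham cortex and changed by -0.79 ± 0.22 (edgeR adjusted p = 0.015). let-7d-5p had 5461, 4784 and 4215 CPM in sham cortex and changed by -0.74 ± 0.23 (edgeR adjusted p = 0.031). These are the same 3 members that had the most negative values against contralateral cortex, and the 2 comparisons share the ipsilateral libraries.

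The other 7 members had values from -0.65 (let-7i-5p, edgeR adjusted p = 0.073) to -0.28 (let-7c-5p, adjusted p = 0.400) against sham, and 8 of 10 members did not overlap with sham, against 11.6% of all tested entries and 28.7% of those of at least 100 CPM. The median was -0.60 over the members, -0.02 over all tested entries and -0.39 over the entries of at least 100 CPM. With library totals 0 members were called and let-7b-5p (0.04) and let-7c-5p (0.09) turned positive. Without sham replicate 2 and ipsilateral 6 h replicate 3, the libraries with high epithelial markers, edgeR called 0 members against sham, with let-7e-5p at -0.76 ± 0.25 (adjusted p = 0.069), let-7f-5p at -0.79 ± 0.28 (adjusted p = 0.094) and let-7d-5p at -0.74 ± 0.27 (adjusted p = 0.102). In the hemisphere comparison at 24 h, which uses neither library directly, 6 members were called without them. Of the 1505 entries tested in that fit, 188 (12.5%) were called, either higher or lower. With the day of surgery as a block, 6 members were called against sham, with let-7a-5p, let-7i-5p and let-7j added, while entries called lower rose to 4.69% of those tested and 18.8% of those of at least 100 CPM.

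Before 24 h no member was called different between the hemispheres. At 3 h, edgeR called 0 of 10 members and 0% of all tested entries in either direction, the member values ran from -0.27 (let-7c-5p) to 0.14 (let-7e-5p), and the median was -0.04. At 6 h, again 0 of 10 members and 0% of entries were called, and values ran from -0.13 to 0.08 with a median of -0.04. With library totals the members' median turned to 0.0084 at 3 h and to 0.13 at 6 h, where all 10 were then above 0, from 0.043 to 0.238. Without ipsilateral 6 h replicate 3 and sham replicate 2 the median at 6 h was -0.058 with 0 members called. let-7f-5p had 44961, 66276 and 55272 CPM on the ipsilateral side and 54292, 51421 and 52547 CPM on the contralateral side at 3 h, so the groups were mixed, with ipsilateral replicate 1 lowest. Its interval at 3 h was -0.42 to 0.57 and at 6 h -0.47 to 0.52. Differences inside these ranges were thus not excluded. No member had an unadjusted p under 0.05 at either time, and DESeq2 called 0.

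At 12 h all 10 values were below 0, from -0.34 (let-7d-5p, 95% interval -0.81 to 0.12) to -0.06 (miR-98-5p), with a median of -0.25, but 0 members were called. No entry of the table was called lower (0%), 4.35% were called higher, 0 members had an unadjusted p under 0.05, and DESeq2 called 0. let-7f-5p had 61861, 85602 and 42600 CPM on the ipsilateral side and 83103, 71026 and 77073 CPM on the contralateral side. The ipsilateral libraries thus spanned both sides of the contralateral range, with replicate 2 high and replicate 3 low. Among the members at 12 h only let-7c-5p was below 0 on all 3 days, which was the case for 10.6% of all tested entries, and the day of replicate 2 was above 0 for each of the other members. At 3 and 6 h no member was below 0 on all 3 days, against 15.4% and 15.6% of the tested entries.

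A change of the hemisphere difference with time was not called for any member by edgeR. The joint test for a difference at any time called 0 members and 8.98% of entries. In it 7 members and 235 of the 1470 entries had an unadjusted p under 0.05, and the lowest adjusted p of a member was 0.055 for let-7d-5p. With the day of surgery as a block that test called 3 members, let-7f-5p (edgeR adjusted p = 0.013), let-7e-5p (0.014) and let-7d-5p (0.015), and 11.6% of all entries. The joint test for a change over time called 0 members and 0.612% of entries. In it 3 members and 137 of the 1470 entries had an unadjusted p under 0.05, and the lowest adjusted p of a member was 0.283 for let-7e-5p. Against the mean of the earlier 3 times, the 24 h difference of let-7f-5p was lower by 0.93 ± 0.28 on the log2 scale and that of let-7e-5p by 0.84 ± 0.25, both with an edgeR adjusted p of 0.116. In that contrast 0 members were called, with 0% of entries lower and 0.544% higher, while 7 members and 199 of the 1470 entries had an unadjusted p under 0.05. DESeq2 called 2, 0 and 3 members in these tests, and its calls over all entries in them are not given here, so these counts lack a background.

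Within ipsilateral cortex, the step from 12 to 24 h had the most negative member median of the 3 steps between neighbouring times. The members had a median of -0.73 and values from -0.89 (let-7f-5p) to -0.49 (let-7c-5p), and 9 of 10 did not overlap, against 5.17% of tested entries and 17% of those of at least 100 CPM. Over all tested entries the median was 0.23, and over those of at least 100 CPM it was -0.46. With library totals the members' median was -0.28 and 0 members were called. edgeR called 0 members and 0% of entries in this comparison, with adjusted p from 0.157 to 0.229, although all 10 members and 252 of the 1470 entries had an unadjusted p under 0.05. DESeq2 called all 10 members, all lower, among 47 entries it called lower. Without ipsilateral 12 h replicate 3, the lowest library of that group for let-7f-5p, edgeR called 7 members, and 2.53% of all entries and 12.1% of those of at least 100 CPM were called lower. From 3 to 6 h the median was 0.31, with 0 members called by edgeR or DESeq2, 0% of entries called and 1 member at an unadjusted p under 0.05. Without ipsilateral 6 h replicate 3 and sham replicate 2 it was 0.30, and from 6 to 12 h -0.043. With all libraries the median from 6 to 12 h was -0.053, with 0 members called by either tool, 0 at an unadjusted p under 0.05, and 0.476% of entries called higher and 0% lower.

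In contralateral cortex the family was not called different from sham at any time. The member medians were -0.08 at 3 h, 0.24 at 6 h, 0.37 at 12 h and 0.19 at 24 h, with 0 calls by edgeR or DESeq2 and 0% of entries called in either direction at each time. At 12 h all 10 members were above 0, 4 of them (let-7a-5p, let-7b-5p, let-7c-5p and miR-98-5p) without overlap, against 3.2% of all entries and 8.51% of those of at least 100 CPM. let-7c-5p had the largest value, 0.47 ± 0.20, and it and let-7b-5p were the 2 members with an unadjusted p under 0.05, at an edgeR adjusted p of 0.968. With library totals the median at 12 h was 0.17 and that at 3 h turned to 0.050. Without sham replicate 2 and ipsilateral 6 h replicate 3 the medians were 0.014, 0.35, 0.48 and 0.27 at 3, 6, 12 and 24 h, with 0 members called. Between 3 and 24 h in contralateral cortex the members had a median of 0.25, with 0 called by edgeR or DESeq2, 0 at an unadjusted p under 0.05 and 0% of entries called. Ipsilateral cortex against sham had member medians of -0.15 at 3 h, 0.22 at 6 h and 0.13 at 12 h, with 0 calls by either tool and no unadjusted p under 0.05. The 3 h median turned to 0.051 with library totals, and without those 2 libraries the medians were -0.062, 0.31 and 0.24 with 0 members called. Of all entries, 0% were called at 3 and 6 h, and 0.68% were called lower and 4.76% higher at 12 h.

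The sum of the 10 entries, which does not depend on how a read was split among them, gave the same picture. It came to 65553, 91991 and 78439 CPM in ipsilateral replicates 1, 2 and 3 at 24 h, against 169624, 127883 and 122569 CPM in contralateral and between 107171 and 144669 CPM in sham libraries. These 24 h ipsilateral values overlapped with only 1 of the other 24 libraries, ipsilateral 3 h replicate 1 with 91374 CPM, which also had the highest TMM factor (1.51). As a single summed entry the family had a log2 fold change of -0.84 ± 0.23 between hemispheres at 24 h, and -0.36 ± 0.19 with library totals. Against sham the summed entry had -0.70 ± 0.23.

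As a share of the library total, the family took 9.40%, 10.8% and 9.78% in ipsilateral cortex at 24 h (mean 10.0% ± 0.746, SD, n = 3) and 15.7%, 10.6% and 12.1% in contralateral cortex (mean 12.8% ± 2.63). These shares overlapped through contralateral replicate 2. Sham cortex had a mean share of 12.5% ± 1.55, and the highest group mean was that of ipsilateral cortex at 6 h, 15.0% ± 2.93. Without the 2 libraries of high epithelial sum these means were 12.7% and 15.1% over the remaining 2 libraries each. Ordered by mean share, the groups from ipsilateral 12 h (12.4%) to contralateral 12 h (13.7%) differed from their neighbours by less than their SD.

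**Figure D4:**
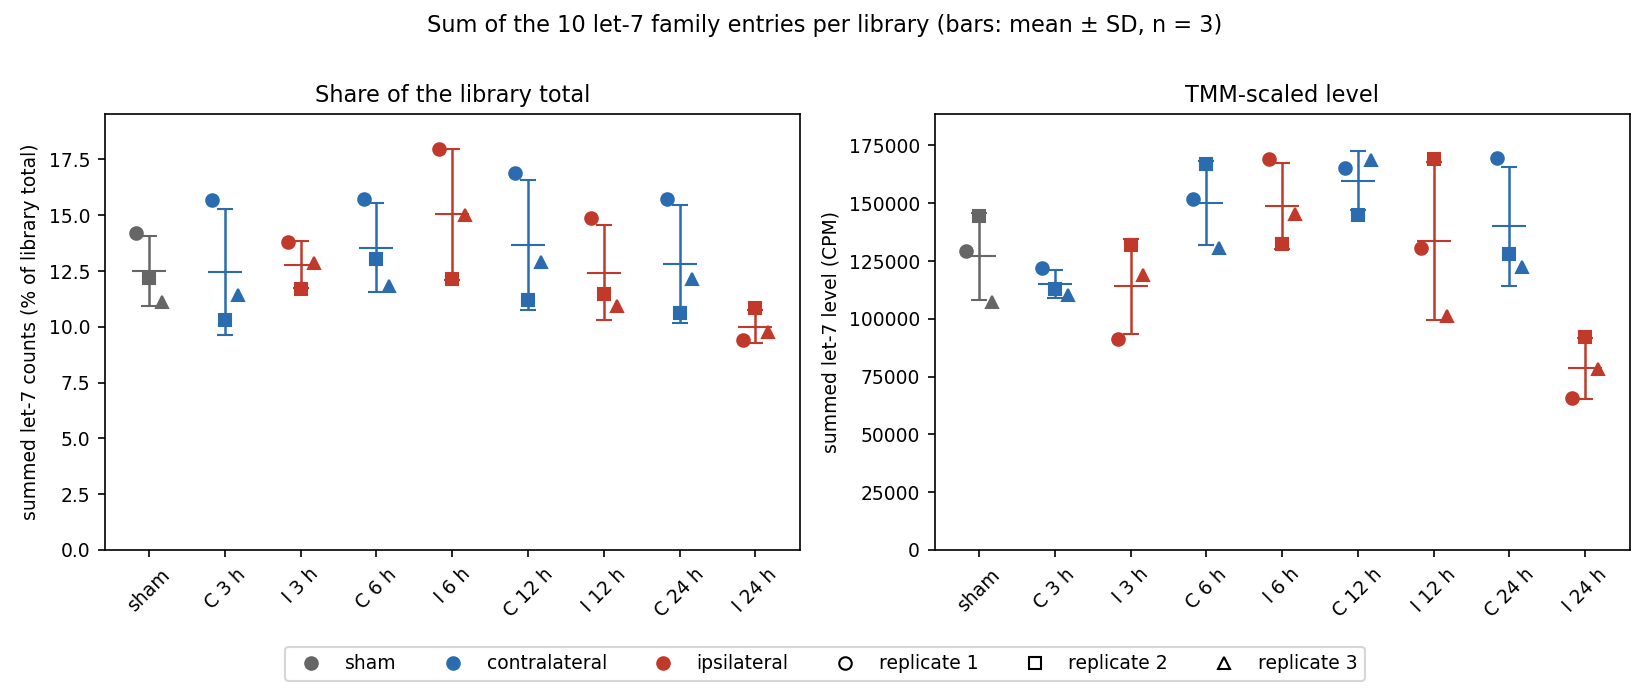
Summed count of the 10 members per library by group as a percentage of the library total (left) and as TMM-scaled level in CPM (right), with mean ± SD (n = 3). The ipsilateral 24 h group has the lowest mean in both panels, but it is clear of the contralateral 24 h libraries only in the right one.

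The makeup of the family was examined as the share of each member in the summed count, which no scaling between libraries can alter. let-7f-5p made up 47.9% on average (lowest 39.6%, highest 52.6%), let-7c-5p 14.2% and let-7a-5p 11.1%. In ipsilateral cortex at 24 h, let-7f-5p had shares of 39.6%, 48.1% and 40.8%, against 48.5%, 47.2% and 49.0% in contralateral cortex. Ipsilateral replicates 1 and 3 had the lowest let-7f-5p shares of all 27 libraries, the other 24 h ipsilateral library being within the range of the rest. The mean difference was -5.42 percentage points, ran from -8.06 to -3.81 when single libraries were left out, and the groups overlapped.

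let-7c-5p had the larger share on the ipsilateral side, with 18.7%, 15.4% and 17.5% in ipsilateral and 14.1%, 14.4% and 13.8% in contralateral cortex at 24 h. These groups did not overlap, although 1 contralateral 3 h library reached 17.98% as well. The count ratio of let-7c-5p to let-7f-5p was 0.473, 0.320 and 0.430 in ipsilateral and 0.290, 0.305 and 0.281 in contralateral cortex, and 0.259 on average in sham cortex. These 2 mature RNAs come from different chromosomes. Among all 45 ratios of 2 members, 11 did not overlap between the hemispheres at 24 h (24.4%), against 28.5% of the ratios of 2 entries of at least 100 CPM, so shifts of this kind were about as frequent inside the family as between abundant miRNAs in general.

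**Figure D5:**
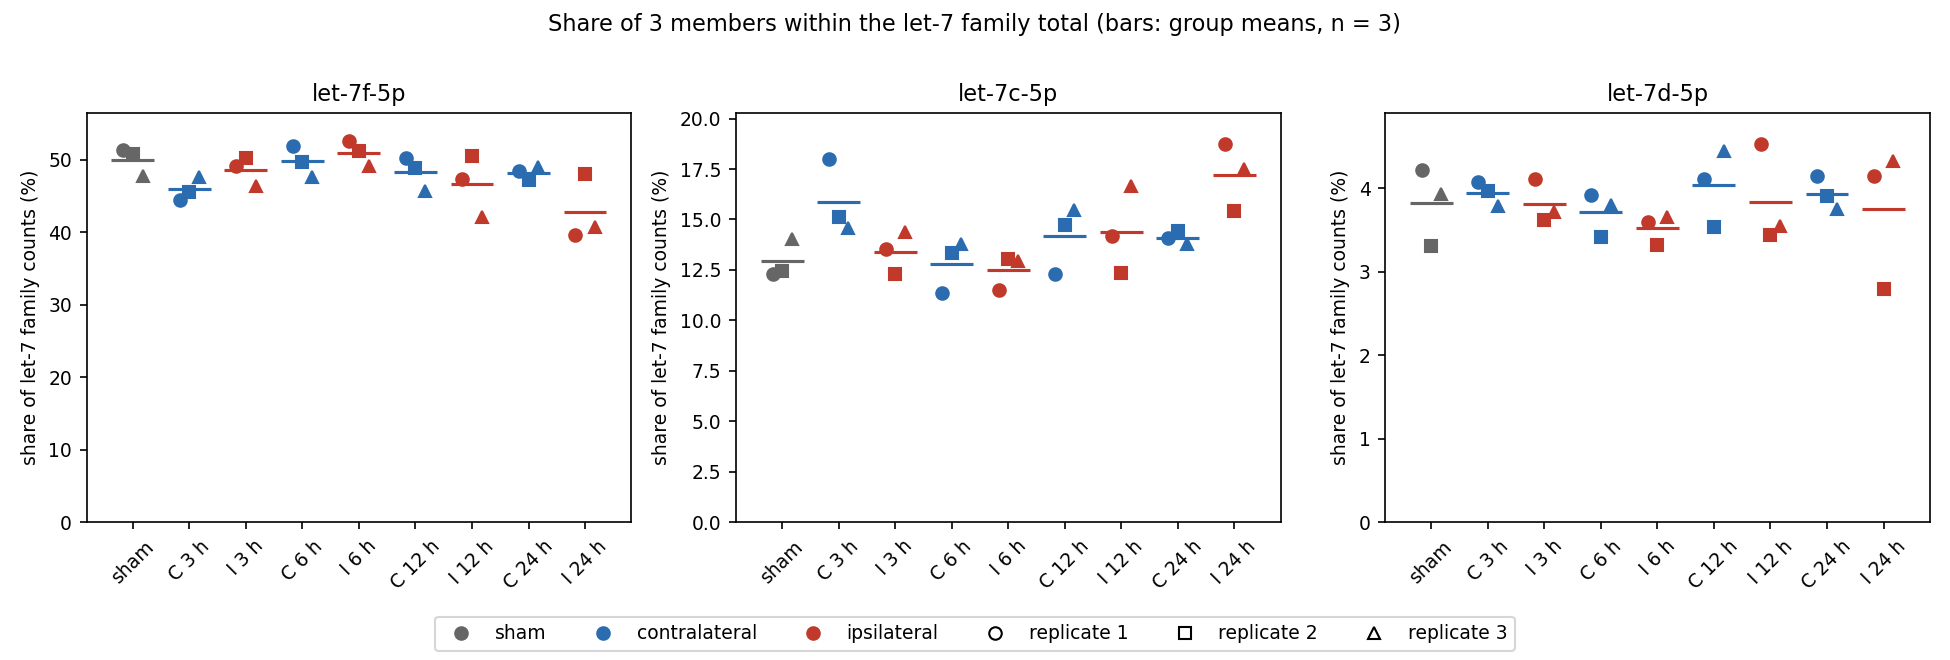
Share of let-7f-5p, let-7c-5p and let-7d-5p in the summed let-7 count (y axis, percent) in each of the 27 libraries by group, with bars for group means (n = 3). let-7f-5p is lowest in ipsilateral 24 h replicates 1 and 3, let-7c-5p is highest in ipsilateral 24 h replicate 1, and let-7d-5p is lowest in ipsilateral 24 h replicate 2, with the other 2 libraries of that group inside the range of the rest.

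Across the 27 libraries, which share their scaling factors and their days of surgery, the members varied together. As a description, Pearson's r of log2 CPM was highest between let-7a-5p and let-7f-5p and between let-7e-5p and let-7f-5p (0.95 each), and r was 0.94 between let-7b-5p and let-7c-5p. It was lowest between let-7e-5p and miR-98-5p (0.63). let-7f-5p and miR-98-5p, which have neighbouring hairpins on the X chromosome, had an r of 0.76. The biological coefficient of variation of the members in edgeR's fit lay between 0.213 (let-7c-5p) and 0.253 (let-7j), below the median of 0.309 for entries of at least 100 CPM. Over the 10 members, the 24 h fold change had an r of -0.46 with the log2 level and of 0.17 with the GC content of the mature sequence.

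The 5 entries outside the family that followed its summed level most closely over the 27 libraries, of 272 with at least 100 CPM, were miR-181b-5p (r = 0.94), miR-181a-5p (0.94), miR-1843b-5p (0.92), miR-383-5p (0.91) and miR-423-3p (0.90). With library totals these correlations of log2 CPM were 0.89, 0.86, 0.81, 0.77 and 0.78. The order depended on the scaling: with library totals miR-30c-2-3p (0.84) and miR-1839-5p (0.82) took places 3 and 4. There miR-423-3p fell to place 8 and miR-383-5p to place 9. At 24 h, miR-181a-5p, at 100385 CPM more abundant than any let-7 member, had -0.71 ± 0.22 on the log2 scale between the hemispheres (edgeR adjusted p = 0.026). miR-423-3p had -0.74 ± 0.21 (edgeR adjusted p = 0.015), miR-181b-5p -0.71 ± 0.21 (0.022) and miR-1843b-5p -0.73 ± 0.22 (0.027). miR-383-5p was not called (-0.53 ± 0.20, edgeR adjusted p = 0.082). All 5 were picked for following the family over libraries that include those of 24 h, so lower values at 24 h are partly built in by that choice.

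The passenger strands, cut from the other arm of the same hairpins and usually discarded, were far rarer. Of 12 listed, 10 were measured and tested, and at 24 h edgeR called 0 of them between the hemispheres, with 8 of 10 below 0, a median of -0.53, 4 at an unadjusted p under 0.05 and 0 called by DESeq2. The most abundant, let-7d-3p, was at 821 ± 163 CPM on the ipsilateral side and at 1249 ± 252 CPM on the contralateral side (SD, n = 3), which is -0.60 ± 0.24 on the log2 scale (edgeR adjusted p = 0.103), beside -0.94 for its guide let-7d-5p. let-7f-2-3p, from the X hairpin, had 0.21 ± 0.53 (adjusted p = 0.869), and let-7b-3p had -0.53 ± 0.36 (adjusted p = 0.386). Against sham, let-7c-1-3p, at only 12.4 CPM on average, was called lower by edgeR (-1.13 ± 0.37, adjusted p = 0.042), while DESeq2 called no passenger strand.

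miRNAs that share primary transcripts with let-7c-1, let-7a-2 and let-7e also had values below 0 at 24 h. All 5 entries (miR-99a-5p, miR-100-5p, miR-125b-5p, miR-99b-5p and miR-125a-5p) were negative with a median of -0.43, and edgeR called 0, with 1 at an unadjusted p under 0.05 and 0 called by DESeq2. The median over all entries of at least 100 CPM was -0.47 in this comparison, so these 5 were not lower than abundant entries in general. miR-125a-5p, from the let-7e transcript, was at 10335 ± 3269 CPM on the ipsilateral side and at 16041 ± 3671 CPM on the contralateral side (SD, n = 3), which is -0.63 ± 0.30 on the log2 scale (edgeR adjusted p = 0.195), and miR-99b-5p from that transcript had -0.33 ± 0.44 (adjusted p = 0.711). miR-125b-5p had -0.66 ± 0.37 (adjusted p = 0.295). Their standard errors were larger than those of the let-7 guides, whose values lay between 0.20 and 0.25.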

How the data were processed

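Small RNA libraries of 27 cortex samples were sequenced. Per the labels' protocols, total RNA was extracted with Trizol and libraries followed the TruSeq small RNA protocol. The authors deposited 1 table of raw counts per mature miRNA. Per the submitters' processing notes, Novoalign and edgeR were used, with no role or version. Neither the genome build nor the rule for multiply matching reads was given in the sources used here. Columns were matched to samples by name and groups were taken from the labels, leaving 0 columns unused.

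Counts were tested with edgeR 4.0.16 in R 4.3.3 (TMM factors, filterByExpr, robust quasi-likelihood F test, 1 model with a mean per group, 18 residual degrees of freedom). Of 1842 entries, 372 fell below the filter, and the 1470 kept held 99.9% of counts. Benjamini-Hochberg adjustment ran over those 1470 in each of 19 comparisons, with calls at an adjusted p under 0.05. P-values measure the spread between libraries of 1 group. Wilson intervals came from scipy 1.17.1. DESeq2 1.42.0, other scalings and filters, a block for the day of surgery and leaving out each library were alternatives.

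The series' design text says that each replicate set is a distinct day of surgery, so replicate numbers pair libraries by day. Deviations from group means over the entries of at least 100 CPM correlated at a mean of 0.39 over 108 pairs of libraries with the same number and -0.19 over 216 pairs with other numbers. Deviations within a group sum to 0, so the second value follows largely from the first and adds no separate information. In 10 of 12 hemisphere pairs the correlation was over 0.1.

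On simulated counts for ipsilateral against contralateral cortex at 24 h (1413 entries), 18% of the 100 entries given a 2-fold change were recovered, 77.3% of the 97 given a 4-fold change, and 5 false calls arose. Among entries of at least 100 CPM these shares were 27.8% of 18 and 88.2% of 17.

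Members were taken by name. From each related list the 3 most abundant tested entries and any entry called at 24 h between hemispheres are named. The 5 entries most like the family total with TMM factors are named too. miR-30c-2-3p and miR-1839-5p are named for their places with library totals. let-7c-1-3p was named after its value was seen. The members and lists were chosen with earlier results of these data known.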

Additional observations from a re-analysis of the deposited data

How the results depend on the processing

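For ipsilateral against contralateral cortex at 24 h, where 7 members were called, all 140 member values under 14 alternatives stayed below 0. The count of called members was 0 with library totals, 1 with TMM factors from the abundant entries, 1 when only the abundant entries were tested, 3 with no filter, 0 when only the compared groups were fitted, 6 with DESeq2's size factors, and 9 with DESeq2, and the replicate block gave 9 with all 7 calls kept. Leaving out 1 library gave 1 to 7: let-7f-5p alone without contralateral replicate 1, and let-7d-5p alone without ipsilateral replicate 1. Over all entries, those called lower numbered 0 with library totals, 4 with TMM factors from the abundant entries and 20 with DESeq2's size factors. They were 1.9% of entries with DESeq2 (11.3% of those of at least 100 CPM) and 6.53% with the replicate block (31.2%). For the other settings such counts are not given here.

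Against sham at 24 h the 3 calls became 0 with library totals, with only the abundant entries tested and with only the compared groups fitted, 1 with TMM from abundant entries and with no filter, 6 with the replicate block, and 0 to 3 when 1 library was left out (0 without sham replicate 2 or ipsilateral replicate 1, 1 without sham replicate 1). An alternative chosen after seeing the data, without the 2 libraries of highest epithelial sum, gave 0. Over all entries, those called lower against sham numbered 4 with library totals and 9 with TMM from abundant entries, and were 4.69% of those tested with the replicate block. let-7b-5p turned to 0.035 with library totals, and let-7c-5p to 0.091 with library totals and 0.018 with TMM from abundant entries or with only those tested.

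Between ipsilateral 12 and 24 h the 0 calls became 10 with DESeq2, and 0 to 7 without single libraries. The joint test at any time gave 3 with the replicate block, 2 with DESeq2 and 0 to 3 without single libraries, and 24 h against the earlier times gave 3 with DESeq2 and 0 to 3 without single libraries. The replicate block changed no other count of called members by over 1.5 times. At 12 h between the hemispheres, miR-98-5p turned to 0.060 with library totals and 0.050 with no filter, and ran from -0.27 to 0.12 when 1 library was left out (above 0 without contralateral replicate 3 or ipsilateral replicate 1), while let-7i-5p ran from -0.33 to 0.063 (above 0 without ipsilateral replicate 3). With totals times TMM factors as the denominator, the family share was 7.87% in ipsilateral 24 h and 11.4% in ipsilateral 3 h libraries. The cause of these shifts was not tested, apart from smaller groups and fewer entries.

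With 3 libraries a group the test recovered few simulated 2-fold changes, and an uncalled member is not shown to be equal. The table gives no absolute RNA amounts, and which scaling is nearer to RNA per cell cannot be told apart here.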
